A study of Mus musculus with 27 samples.

Results

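Genes that glucocorticoid hormone is known to induce, and the gene of its receptor, were followed in whole lungs of mice instilled with an allergen, combustion products, both or neither. They are Zbtb16, Fkbp5, Map3k6, Tsc22d3, Sgk1, Hif3a, Klf9, Cdkn1a, Pdk4 and the receptor gene Nr3c1. They were chosen by symbol, with earlier results of these data known. Comparisons of the 10 with all genes are therefore descriptive and are not independent evidence of an excess. These make up 10 of the 56941 genes deposited, and all 10 were among the 24581 genes that passed the filter on low counts. In short, 6 of the 10 were called lower in lungs given allergen and then saline than in lungs given vehicle only, where 2.25% of all genes were, and Zbtb16 had the largest fold change of the 10, -2.17 ± 0.40 on the log2 scale (SE). Sgk1, Cdkn1a, Pdk4 and Nr3c1 did not pass the test in that comparison.

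All 27 mice were male C57Bl/6J animals of 7 to 8 weeks. PBS_SAL mice (n = 7) received 5 oropharyngeal instillations of 50 µl of phosphate-buffered saline (PBS) at intervals of 2 to 3 days and, 24 h after the last, 100 µl of saline (SAL). PBS_CP mice (n = 7) had the same PBS instillations and then 100 µl of CP, a preparation of combustion products obtained by burning plywood, plastic and paper, at 2 mg per ml in saline. HDM_SAL mice (n = 6) received the allergen HDM (extract of house dust mite, 10 µg) in each of the 5 instillations and then saline, and HDM_CP mice (n = 7) received HDM and then CP. Every mouse, the PBS_SAL controls included, thus received all instillations, of vehicle or of agent, and whole lungs were collected 24 h after the last instillation under isoflurane. No group is untouched, the labels give no hour of collection, and no hormone level was analysed here.

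Glucocorticoids (corticosterone in mice) are released by the adrenal gland under stress and in a daily rhythm. They bind the glucocorticoid receptor, which is held in the cytoplasm by chaperones, and the bound receptor enters the nucleus and acts at glucocorticoid response elements (GREs), paired AGAACA-like hexamers. In the lung the hormone drives maturation of the epithelium, restrains inflammation and is the basis of inhaled asthma therapy. Several of its targets feed back on the receptor, on inflammatory signalling or on the circadian clock.

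Start-site sequences are shown here for the members in whose windows a searched motif was found: Fkbp5 and Tsc22d3, which fell in HDM_SAL, and Sgk1, which did not pass the test there. RefSeq start-site windows of 300 bases (250 before to 50 after the start, GRCm38.p6, a different build from that of the count tables) matched 8 of the 10 members with 16 start sites in all. They matched neither Zbtb16 nor Nr3c1. Capitals mark the searched motifs on either strand: the full GRE (AGAACA, then any 3 bases, then TGTTCT), a single GRE hexamer (AGAACA or TGTTCT, which also lies inside every full GRE) and the E-box (CACGTG) that clock proteins bind. The D-box (TTATGTAA or TTACATAA), bound by proteins such as Dbp and Hlf, was searched as well.
Sgk1, chr10:21993640-21993939, plus strand: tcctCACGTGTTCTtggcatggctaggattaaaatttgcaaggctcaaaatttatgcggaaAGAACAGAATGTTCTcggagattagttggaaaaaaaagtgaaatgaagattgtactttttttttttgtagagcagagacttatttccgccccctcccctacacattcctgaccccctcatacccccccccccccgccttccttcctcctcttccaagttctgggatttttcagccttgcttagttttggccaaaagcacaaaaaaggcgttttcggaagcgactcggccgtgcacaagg
Fkbp5, chr17:28486100-28486399, minus strand: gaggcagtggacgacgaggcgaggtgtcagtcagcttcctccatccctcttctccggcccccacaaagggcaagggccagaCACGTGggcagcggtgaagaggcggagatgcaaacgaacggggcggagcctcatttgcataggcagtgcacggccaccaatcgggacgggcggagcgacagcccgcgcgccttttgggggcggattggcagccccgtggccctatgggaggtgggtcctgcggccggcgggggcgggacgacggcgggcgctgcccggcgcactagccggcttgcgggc
Tsc22d3, chrX:140600473-140600772, minus strand: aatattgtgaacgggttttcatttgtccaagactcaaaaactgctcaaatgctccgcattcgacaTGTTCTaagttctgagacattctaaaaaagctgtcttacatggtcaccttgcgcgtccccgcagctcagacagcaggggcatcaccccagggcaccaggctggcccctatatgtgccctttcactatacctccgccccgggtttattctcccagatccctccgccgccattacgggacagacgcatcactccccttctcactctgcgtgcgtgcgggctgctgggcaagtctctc
The Sgk1 window, that of the fifth of its 6 start sites along the chromosome, holds a full GRE whose first base lies at -189 from the start site, and an E-box at -246 that overlaps a further TGTTCT at -242. Full GREs of these letters were found in 3 of all 32851 start-site windows (0.00913%). Other Sgk1 windows, not shown, hold a GRE hexamer at -195 (chr10:21881934-21882233) and at -13 (chr10:21991973-21992272). By gene, 2 of the 8 matched members hold a GRE hexamer, beside 21.3% of all genes with windows. Fkbp5 has an E-box at -169, a motif found in 7.15% of all windows, and no GRE hexamer. The upstream-most of the 3 Tsc22d3 start sites has 1 GRE hexamer at -185, as 19.0% of all windows have at least 1. No D-box was found in the members' windows (0.938% of all windows). These matches are of letters only, and receptor-bound elements of such genes often lie outside so short a window.

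The deposited estimated counts summed to between 56.3 and 84.4 M per library. Levels are given as CPM, mean ± SD over mice. CPM are counts scaled to the library total of the filtered genes, adjusted by edgeR's TMM factors. TPM (scaled to transcript length and library total) are given where genes are compared with each other. Markers of alveolar type 2, club and endothelial cells were all above 0 in every group, as a lung label asks. Heart muscle markers summed to 76.5 to 302 TPM per library, with HDM_SAL at a median of 161 and PBS_SAL at 102. Mitochondrial genes held 2.08% to 2.48% of counts in PBS_SAL (median 2.27%), 2.11% to 2.79% in PBS_CP, 2.32% to 3.86% in HDM_SAL (median 2.81%) and 2.16% to 2.71% in HDM_CP. HDM_SAL 50, 54 and 99 were the 3 highest of all libraries, and the part of this share in the values of the members was not tested. Libraries are named by group and number, and the numbers fall into 3 runs (45 to 64, 66 to 81 and 96 to 105), each of which holds all 4 groups. Nothing in the labels says that mice of a group were treated in separate experiments, so p-values measure the spread between these mice.

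**Figure D1:**
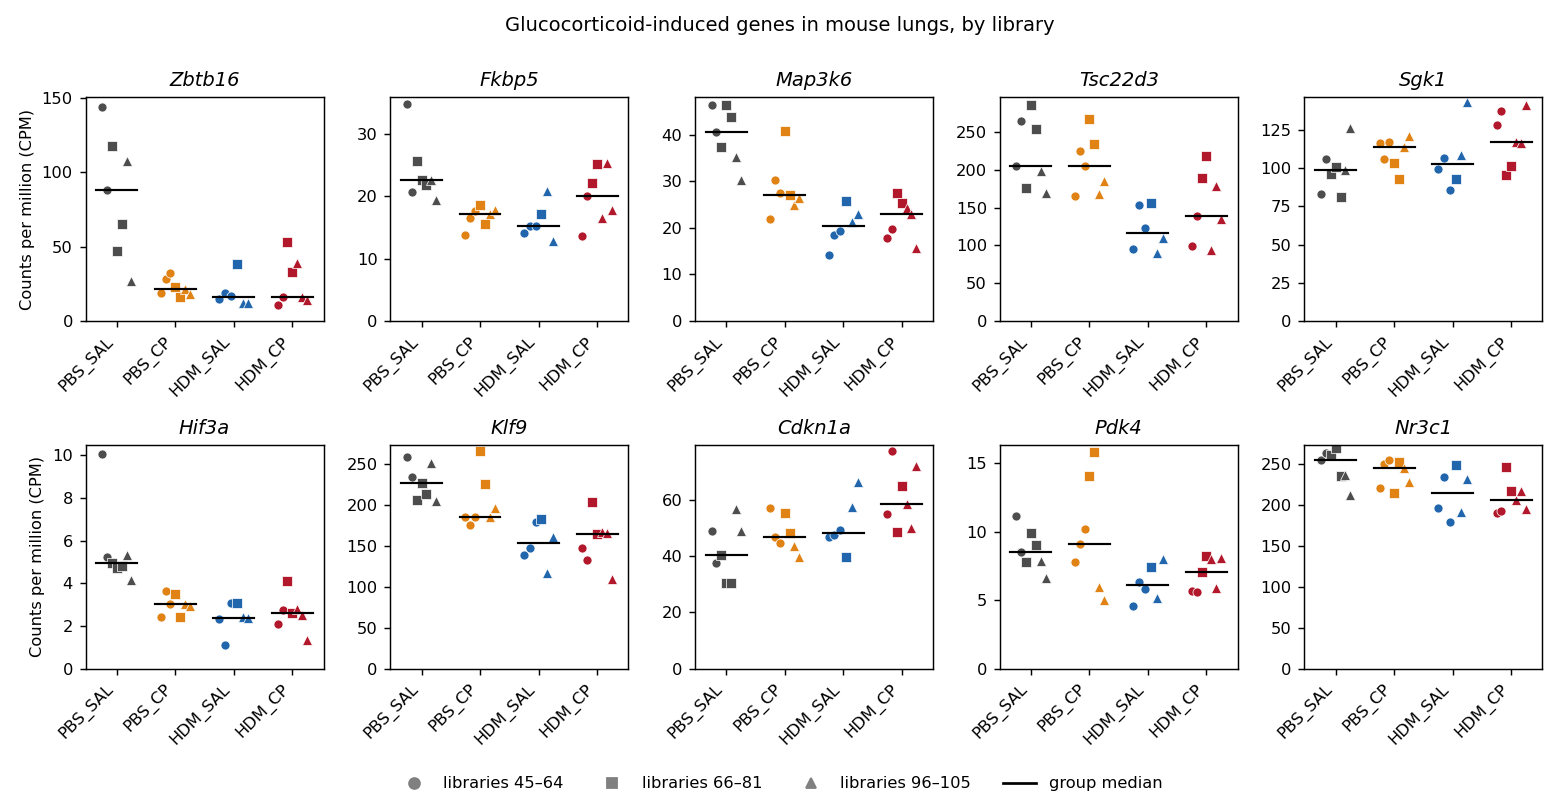
CPM of the 10 genes (linear vertical axes from 0, a separate scale for each gene) in each of the 27 libraries by group, with bars at group medians and symbols for the 3 runs of library numbers. For Zbtb16 the PBS_SAL libraries lie between 27.02 and 144 CPM and all other libraries between 10.9 and 53.3, while Sgk1 and Cdkn1a have their lowest medians in PBS_SAL.

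Members differed widely in level. In PBS_SAL lungs the median level per transcript length was highest for Tsc22d3 (215 TPM), followed by Klf9 (107), Nr3c1 (89.7) and Sgk1 (87.1). Cdkn1a (45.1 TPM) and Zbtb16 (38.7) came next, then Map3k6 (21.0), Fkbp5 (13.6) and Pdk4 (5.25), with Hif3a lowest (1.86). The median of Zbtb16 was above that of Map3k6 in PBS_SAL but under it in the other groups, at 9.80 TPM in PBS_CP, 6.60 in HDM_SAL and 7.18 in HDM_CP. Nr3c1 and Sgk1 are neighbours whose medians in PBS_SAL differ by less than their spread over mice.

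Transcription factors are described first. Zbtb16 (ENSMUSG00000066687.6, GRCm39 chromosome 9, 48565597 to 48747522, minus strand) encodes PLZF, a zinc finger factor that hormone treatment raises in many tissues and that natural killer T and innate lymphoid cells need. In PBS_SAL its lowest, median and highest values were 27.02, 88.2 and 144 CPM, with a mean of 85.2 ± 41.4 (SD, n = 7). In PBS_CP they were 16.3, 21.9 and 32.1 CPM (22.8 ± 5.70, n = 7), in HDM_SAL 11.9, 16.1 and 38.6 (19.0 ± 9.98, n = 6) and in HDM_CP 10.9, 16.6 and 53.3 (26.1 ± 15.9, n = 7). None of the 20 other libraries reached the PBS_SAL median. The groups overlapped through the lowest PBS_SAL library, number 105, above which lay PBS_CP 58 and 59, HDM_SAL 72 and HDM_CP 66, 67 and 96. HDM_CP 66 was also above PBS_SAL 80 (46.9 CPM). The SD was largest in PBS_SAL.

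Hif3a (ENSMUSG00000004328.16, chromosome 7, 16765432 to 16796352, minus strand), a hypoxia-inducible factor subunit of which some isoforms oppose its relatives, was weakly expressed. Its values in PBS_SAL were 4.15, 4.96 and 10.1 CPM (lowest, median and highest; mean 5.60 ± 2.00). PBS_CP libraries held 2.42, 3.02 and 3.62 CPM, HDM_SAL 1.10, 2.38 and 3.08, and HDM_CP 1.34, 2.63 and 4.10. In CPM every one of the 20 other libraries was under the lowest PBS_SAL library. In TPM the lowest PBS_SAL value (1.38) was under the highest values of HDM_SAL (1.41) and HDM_CP (1.62).

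Klf9 (ENSMUSG00000033863.3, chromosome 19, 23118590 to 23145498, plus strand), a Krüppel-like repressor whose expression follows both stress hormone and time of day, spanned 205, 227 and 258 CPM in PBS_SAL. In PBS_CP it spanned 176, 186 and 266 CPM, in HDM_SAL 117, 154 and 183, and in HDM_CP 110, 165 and 203. Both HDM groups lay under all PBS_SAL libraries in CPM, while PBS_CP overlapped with PBS_SAL. In TPM the highest HDM_CP value (97.3) was above the lowest PBS_SAL value (96.3).

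Among regulators of the receptor and of inflammation, Fkbp5 (ENSMUSG00000024222.18, chromosome 17, 28618068 to 28736501, minus strand) encodes a co-chaperone that lowers the receptor's affinity for hormone in a short feedback loop. Its lowest, median and highest values were 19.4, 22.6 and 34.8 CPM in PBS_SAL, 13.7, 17.1 and 18.6 in PBS_CP, 12.9, 15.2 and 20.9 in HDM_SAL and 13.7, 20.1 and 25.3 in HDM_CP. PBS_CP lay wholly under PBS_SAL, HDM_SAL overlapped with it through library 99, and HDM_CP overlapped broadly.

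Tsc22d3 (ENSMUSG00000031431.14, chromosome X, 139440277 to 139501408, minus strand) encodes GILZ, a leucine zipper protein that carries part of the hormone's anti-inflammatory action. It held 170, 205 and 286 CPM in PBS_SAL and nearly the same in PBS_CP (166, 205 and 268). HDM_SAL libraries held 89.6, 116 and 156 CPM, all under PBS_SAL, and HDM_CP libraries 94.7, 139 and 219. Nr3c1 (ENSMUSG00000024431.16), the receptor gene itself, which ligand tends to lower in many cells, spanned 213, 255 and 270 CPM in PBS_SAL, 216, 245 and 255 in PBS_CP, 180, 215 and 249 in HDM_SAL and 190, 206 and 247 in HDM_CP. The Nr3c1 groups overlapped in every comparison.

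Kinases and the cell cycle inhibitor gave a mixed picture. Map3k6 (ENSMUSG00000028862.7, chromosome 4, 132968129 to 132980240, plus strand), a stress-activated kinase that starts a MAP kinase cascade, held 30.3, 40.6 and 46.4 CPM in PBS_SAL, 21.9, 27.1 and 40.7 in PBS_CP, 14.1, 20.3 and 25.7 in HDM_SAL and 15.8, 22.9 and 27.5 in HDM_CP. Both HDM groups were wholly under PBS_SAL. Sgk1 (ENSMUSG00000019970.16, chromosome 10, 21758083 to 21875802, plus strand), a kinase that raises sodium uptake through the epithelial sodium channel, went the other way in its medians: 98.8 CPM in PBS_SAL, 114 in PBS_CP, 103 in HDM_SAL and 117 in HDM_CP, with ranges that overlapped throughout.

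Cdkn1a (ENSMUSG00000023067.15, chromosome 17, 29309950 to 29319701, plus strand) encodes the cell cycle inhibitor p21, which p53 induces as well. Its median was also lowest in PBS_SAL (40.3 CPM, range 30.5 to 56.6) and highest in HDM_CP (58.5, range 48.7 to 77.2). Pdk4 (ENSMUSG00000019577.7, chromosome 6, 5483351 to 5496309, minus strand), a kinase that shuts pyruvate out of oxidation in fasting, ranged from 6.60 to 11.1 CPM in PBS_SAL and from 4.98 to 15.8 in PBS_CP. Its medians were 8.48, 9.09, 6.08 and 7.03 CPM in PBS_SAL, PBS_CP, HDM_SAL and HDM_CP, and all groups overlapped.

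In CPM, PBS_SAL thus had the highest median of the 4 groups for 7 members (Zbtb16, Fkbp5, Map3k6, Tsc22d3, Hif3a, Klf9 and Nr3c1) and the lowest for Sgk1 and Cdkn1a. For Tsc22d3 the CPM medians of PBS_SAL and PBS_CP were both 205, and in TPM that of PBS_CP was the higher, 223 against 215. A single library, PBS_SAL 105, was the lowest of its group for 8 members and the highest for Sgk1, and PBS_SAL 61 was the highest for 6. In HDM_SAL, library 72 was the highest for 6 members, and in HDM_CP library 66 was the highest for 5. Members thus tended to stand high or low in the same mice of a group, as the correlations given further on describe.

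The first comparison asked what the allergen did without combustion products. In HDM_SAL against PBS_SAL 6 of the 10 genes were lower and 0 higher at an adjusted p under 0.05 in edgeR's quasi-likelihood test (4-group model, Benjamini-Hochberg adjustment over all 24581 genes), where 5.37% of all genes were called and 2.25% were called lower. Zbtb16 fell by 2.17 ± 0.40 on the log2 scale (SE; 4.49-fold; adjusted p = 0.0026). Hif3a fell by 1.23 ± 0.23 (adjusted p = 0.0020), Map3k6 fell by 0.98 ± 0.14 (0.00029) and Tsc22d3 fell by 0.87 ± 0.19 (0.0065). Fkbp5 fell by 0.59 ± 0.14 (0.011) and Klf9 fell by 0.56 ± 0.12 (0.0051). For Map3k6, Tsc22d3, Hif3a and Klf9 all 6 HDM_SAL libraries lay under all 7 PBS_SAL libraries in CPM. This held, in that direction, for 0.753% of all genes. In TPM Hif3a did overlap.

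The other members did not pass the test in HDM_SAL. Sgk1 differed by 0.10 ± 0.11 (adjusted p = 0.66) and Cdkn1a by 0.29 ± 0.14 (0.25). Pdk4 stood at -0.48 ± 0.20 (0.17) and Nr3c1 at -0.21 ± 0.07 (0.095). The median over the 10 members was -0.57, beside 0.01 over all genes tested. In whole lung, fewer cells that express a gene and less RNA of it per cell cannot be told apart.

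**Figure D2:**
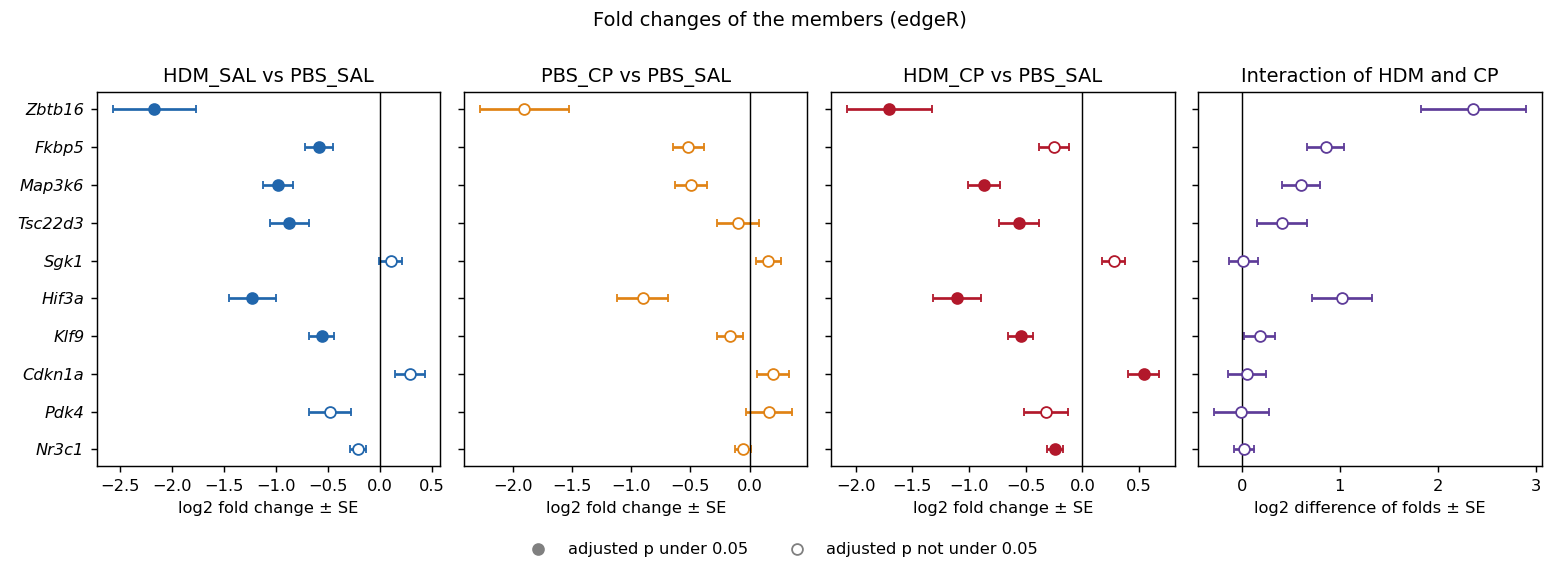
Log2 fold changes ± SE of the 10 genes in the 3 comparisons with PBS_SAL, and in the last panel the interaction (the CP effect in HDM mice minus that in PBS mice), with filled points for an adjusted p under 0.05 and a separate horizontal scale in each panel. In HDM_SAL 6 genes are filled, all to the left of 0, whereas in PBS_CP no point is filled although Zbtb16 lies at -1.90.

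The effect of combustion products without allergen came next. In PBS_CP against PBS_SAL edgeR called 0 of the 10, and 0.00814% of all genes (2 genes). Zbtb16 stood at -1.90 ± 0.38 (adjusted p = 0.17), Hif3a at -0.90 ± 0.21 (0.26), Fkbp5 at -0.52 ± 0.13 (0.31) and Map3k6 at -0.50 ± 0.14 (0.41). These 4 had an unadjusted p under 0.05, against 5.43% of all genes, and by p-value Zbtb16 ranked 4 and Hif3a 21 among the 24581. Fkbp5 and Hif3a had no overlap between PBS_CP and PBS_SAL, as 0.114% of all genes did in that direction. Tsc22d3 (-0.10 ± 0.18) and Klf9 (-0.17 ± 0.11) were near 0, as were Nr3c1 (-0.06 ± 0.07), Sgk1 (0.16 ± 0.10), Cdkn1a (0.19 ± 0.14) and Pdk4 (0.16 ± 0.19).

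Calls in this comparison depended on the tool. DESeq2 called 2 members (Zbtb16 and Hif3a) and 0.13% of all genes, and limma voom with sample weights called Zbtb16, while limma on log2(TPM + 1) called none of the 10. Without PBS_SAL 105 edgeR called Zbtb16 at -2.05 ± 0.35 (adjusted p = 0.033).

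In HDM_CP against PBS_SAL 6 members were lower and 1 higher, where edgeR called 14.5% of all genes (5.94% lower, 8.57% higher). Zbtb16 fell by 1.71 ± 0.37 (adjusted p = 0.0026), Hif3a by 1.11 ± 0.21 (0.00061) and Map3k6 by 0.87 ± 0.14 (7.9e-05). Klf9 fell by 0.55 ± 0.11 (0.0011), Tsc22d3 by 0.56 ± 0.18 (0.033) and Nr3c1 by 0.24 ± 0.07 (0.018). Cdkn1a rose by 0.54 ± 0.14 (0.0067). For Map3k6, Hif3a and Klf9 the groups did not overlap in CPM, as held for 1.04% of all genes in that direction. In TPM Hif3a and Klf9 did overlap. Fkbp5, at -0.25 ± 0.13 (adjusted p = 0.22), Sgk1, at 0.27 ± 0.10 (0.078), and Pdk4, at -0.32 ± 0.19 (0.31), did not pass.

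The call of Tsc22d3 in HDM_CP did not survive leaving out PBS_SAL 64, 80 or 81, or HDM_CP 45, 49, 96 or 98, one at a time, nor omitting the filter on low counts (adjusted p = 0.061) nor fitting only the groups compared (0.066). That of Nr3c1 was lost in limma on log2(TPM + 1), filtered (adjusted p = 0.066) or not (0.13), and on log2(TPM + 0.1) (0.067). The 3 comparisons share the 7 PBS_SAL libraries, so agreement between them is not separate support.

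Next, the allergen effect was taken among mice that had all received combustion products. In HDM_CP against PBS_CP 1 of the 10 was called, Klf9, which fell by 0.38 ± 0.11 (adjusted p = 0.034 in edgeR), where 7.88% of all genes were called and 2.3% were called lower. That call was lost without PBS_CP 75 or 76 or HDM_CP 49 or 98. Zbtb16 differed by 0.20 ± 0.37 and Hif3a by -0.20 ± 0.21, so neither differed between these groups beyond its error. Tsc22d3 (-0.46 ± 0.18, adjusted p = 0.12), Map3k6 (-0.37 ± 0.14, 0.098) and Nr3c1 (-0.19 ± 0.07, 0.11) did not pass.

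Combustion products given after the allergen were compared in HDM_CP against HDM_SAL. There edgeR called 0 of the 10 and 0.00407% of all genes, DESeq2, limma voom and limma on log2(TPM + 1) also called 0 of the 10, and 1 member, Fkbp5, had an unadjusted p under 0.05 (0.34 ± 0.14, adjusted p = 0.39), against 9.67% of all genes. Zbtb16 differed by 0.46 ± 0.38, Tsc22d3 by 0.31 ± 0.18 and Cdkn1a by 0.25 ± 0.14.

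Whether the effect of combustion products differed between HDM and PBS mice was tested by the interaction term. In edgeR 0 of the 10 and 0% of all genes were called. The estimate was 2.36 ± 0.54 for Zbtb16 and 0.85 ± 0.19 for Fkbp5, both with an adjusted p of 0.67, and these ranked 3 and 2 by p-value among all genes. Hif3a (1.02 ± 0.31) and Map3k6 (0.61 ± 0.20, both with an adjusted p of 0.75) also had an unadjusted p under 0.05, as 6.36% of all genes did. DESeq2 called 2 members, Zbtb16 and Fkbp5, among 6 genes in all, and limma voom and limma on log2(TPM + 1) called 0 genes. A positive estimate means that HDM_CP stood higher than the sum of both single-exposure differences would place it.

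Set against the mean of the other 3 groups, PBS_SAL was higher for 6 members, where 7.43% of all genes were called and 3.26% were lower in the other groups. Zbtb16 was lower in the other 3 groups by -1.92 ± 0.28 on the log2 scale (adjusted p = 0.00026), Hif3a by -1.08 ± 0.17 (0.00029) and Map3k6 by -0.78 ± 0.11 (0.00014). Tsc22d3 (-0.51 ± 0.14), Fkbp5 (-0.45 ± 0.10) and Klf9 (-0.43 ± 0.09) passed as well, with adjusted p-values of 0.025, 0.0073 and 0.0036. The contrast reuses the libraries of the comparisons above. Without PBS_SAL 105 it called 8 members, Cdkn1a and Nr3c1 in addition, and without PBS_SAL 64, 80 or 81 Tsc22d3 lost its call. The share of all genes called in those fits is not given here.

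Within each of the 3 runs of library numbers the 6 members that fell in HDM_SAL were lower there than in PBS_SAL. For Map3k6, Tsc22d3, Hif3a and Klf9 this was fixed in advance, since all HDM_SAL libraries lay under all PBS_SAL libraries in CPM. The 6 members were also picked in these same libraries, so the runs are not separate support. Zbtb16 in HDM_SAL differed from PBS_SAL by -2.73, -0.88 and -2.15 in the first, second and last run (log2 CPM), and in PBS_CP by -2.11, -1.87 and -1.42. Hif3a in HDM_SAL differed by -1.85, -0.64 and -0.97, Map3k6 by -1.33, -0.72 and -0.57, and Tsc22d3 by -0.93, -0.58 and -0.89. Klf9 gave -0.67, -0.24 and -0.73 and Fkbp5 -0.85, -0.44 and -0.35. The second run holds a single HDM_SAL library, number 72, so its value has no spread. In that run PBS_CP was above PBS_SAL for Klf9 (0.18) and Tsc22d3 (0.099), and HDM_CP for Fkbp5 (0.021).

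Some pairs of members also varied together inside groups. Deviations of log2 CPM from the group mean were correlated over the 27 libraries for the 45 pairs of members (2-sided permutation tests, 100000 resamples, Benjamini-Hochberg over the 45). Pearson's r was positive in 30 pairs with a median of 0.28, and 14 pairs passed an adjusted p of 0.05, 12 of them positive. The same share was not taken over pairs of other genes, so these counts do not set the members apart from other genes. By r, Map3k6 and Klf9 were closest (r = 0.66, permutation p = 0.00088, adjusted 0.033; Spearman's rho = 0.64, adjusted 0.019), and r was 0.60 without the 2 libraries farthest from the median of Map3k6. Zbtb16 went with Hif3a (r = 0.57, rho = 0.57, adjusted permutation p = 0.033 and 0.025) and r was 0.47 without its farthest 2. Sgk1 ran against Zbtb16 (r = -0.59, rho = -0.58, adjusted permutation p = 0.033 and 0.026; -0.43 without the farthest 2) and against Klf9 (r = -0.54, rho = -0.58, 0.033 and 0.025; -0.67 without). Zbtb16 and Fkbp5 reached r = 0.45 and rho = 0.44, with adjusted permutation p-values of 0.091 and 0.083.

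**Figure D3:**
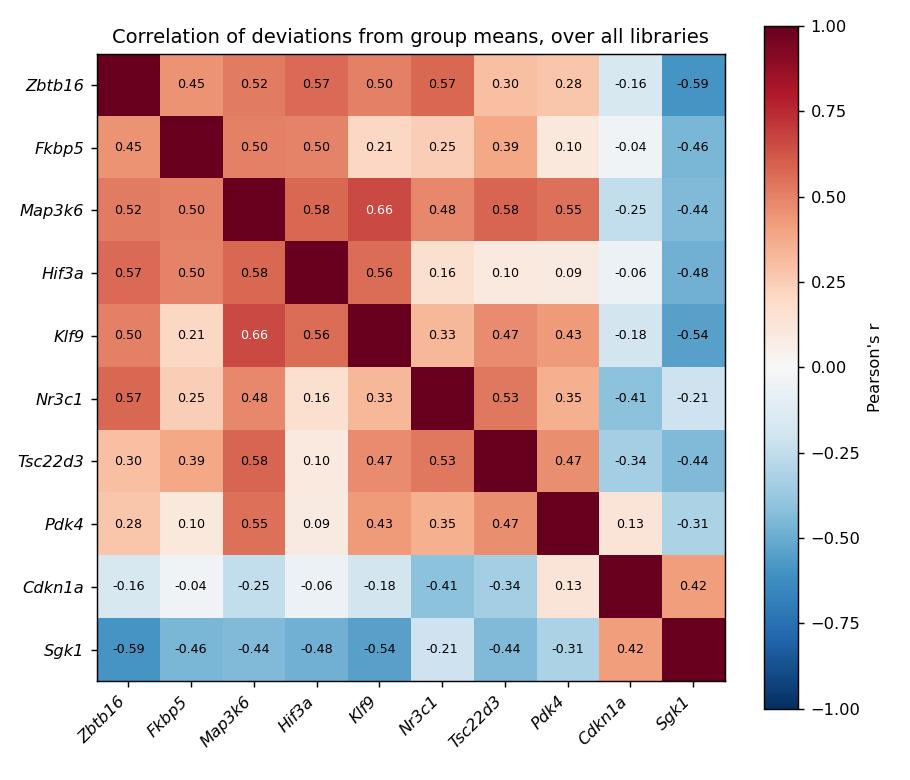
Pearson's r of each pair of the 10 genes, from deviations of log2 CPM from group means over 27 libraries (red positive, blue negative, value printed in each cell). The pairs among Zbtb16, Map3k6, Hif3a and Klf9 are all red, from 0.50 to 0.66, and the Sgk1 row is blue except against Cdkn1a (0.42).

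Among 14827 other genes with a symbol and a mean log2 CPM of at least 1, those whose deviations were most like those of Zbtb16 were Etaa1 (r = 0.78 over 27 libraries), Trdmt1, Mtrex, 4933434E20Rik and Trim44 (0.76 each), and r was 0.63 to 0.70 without the 2 libraries farthest from the median of Zbtb16. None of these 5 passed the test in HDM_SAL against PBS_SAL by edgeR, and their fold changes lay between -0.25 and -0.12. Those most like Fkbp5 were Nktr (r = 0.74), Sema5a (0.72), Stt3b (0.71), Cd163 and Elovl6 (0.70 each). Of these, Stt3b, whose r was 0.49 without the farthest 2, fell in HDM_SAL, by 0.20 ± 0.06 (adjusted p = 0.042).

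Further genes known to be induced by the hormone were examined as a list. Of 25 such genes (Per1 is also a clock gene) 4 were lower and 1 higher in HDM_SAL against PBS_SAL, and their median log2 fold change was -0.17, beside 0.01 for all genes. Per1 fell by 1.33 ± 0.30 (adjusted p = 0.010), Klf15, a partner of the receptor in amino acid breakdown, fell by 0.87 ± 0.19 (0.0088), and Fam107a, a stress-induced actin-binding protein, fell by 0.82 ± 0.15 (0.0023). Lpin1, a phosphatidate phosphatase, fell by 0.34 ± 0.08 (0.0074). Lcn2, an iron-scavenging protein that inflammation induces as well, rose by 1.62 ± 0.34 (0.0069).

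In PBS_CP 0 of the 25 were called by edgeR, 5 had an unadjusted p under 0.05, and DESeq2 and limma voom called 1 each. Fam107a stood at -0.72 ± 0.15 (adjusted p = 0.17). Fam107a levels were 7.88, 12.5 and 13.6 CPM (lowest, median and highest) in PBS_SAL, 5.45, 7.31 and 9.14 in PBS_CP, 5.16, 6.73 and 7.64 in HDM_SAL and 3.51, 6.24 and 7.27 in HDM_CP, so that only PBS_CP overlapped with PBS_SAL. In HDM_CP against PBS_SAL 6 of the 25 were lower and 4 higher, with a median of -0.20.

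A list of 13 genes held chaperones of the receptor and enzymes that make or remove the hormone. It also held Nr3c2, Ncoa1, Ncoa2 and Abcb1a, which are neither. In HDM_SAL 2 were lower and 1 higher. Hsd11b1, which regenerates active corticosterone inside cells, fell by 0.43 ± 0.09 (adjusted p = 0.0065) and H6pd, which supplies its cofactor, fell by 0.33 ± 0.09 (0.025), while the chaperone Hsp90aa1 rose by 0.51 ± 0.12 (0.015). Hsd11b1 held 212, 271 and 303 CPM in PBS_SAL, 225, 236 and 267 in PBS_CP, 175, 196 and 227 in HDM_SAL and 140, 192 and 240 in HDM_CP. The list's median was -0.07.

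Clock genes, which the hormone's daily rhythm helps to set, were examined next. Of 15 clock genes 11 were lower and 2 higher in HDM_SAL against PBS_SAL, with a median of -0.65. Bhlhe41 fell by 0.84 ± 0.18, Hlf by 0.96 ± 0.21 and Ciart by 0.56 ± 0.12 (adjusted p = 0.0065, 0.0089 and 0.0085). Npas2 rose by 1.51 ± 0.29 (0.0028), as did Arntl, named after its value was seen (1.11 ± 0.26, adjusted p = 0.012), both activators of the clock loop. In HDM_CP 12 were lower and 2 higher, with a median of -0.85. In PBS_CP edgeR called 0 of the 15, with a median of -0.38, while 13 had an unadjusted p under 0.05 and DESeq2 and limma voom called 1 each.

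**Figure D4:**
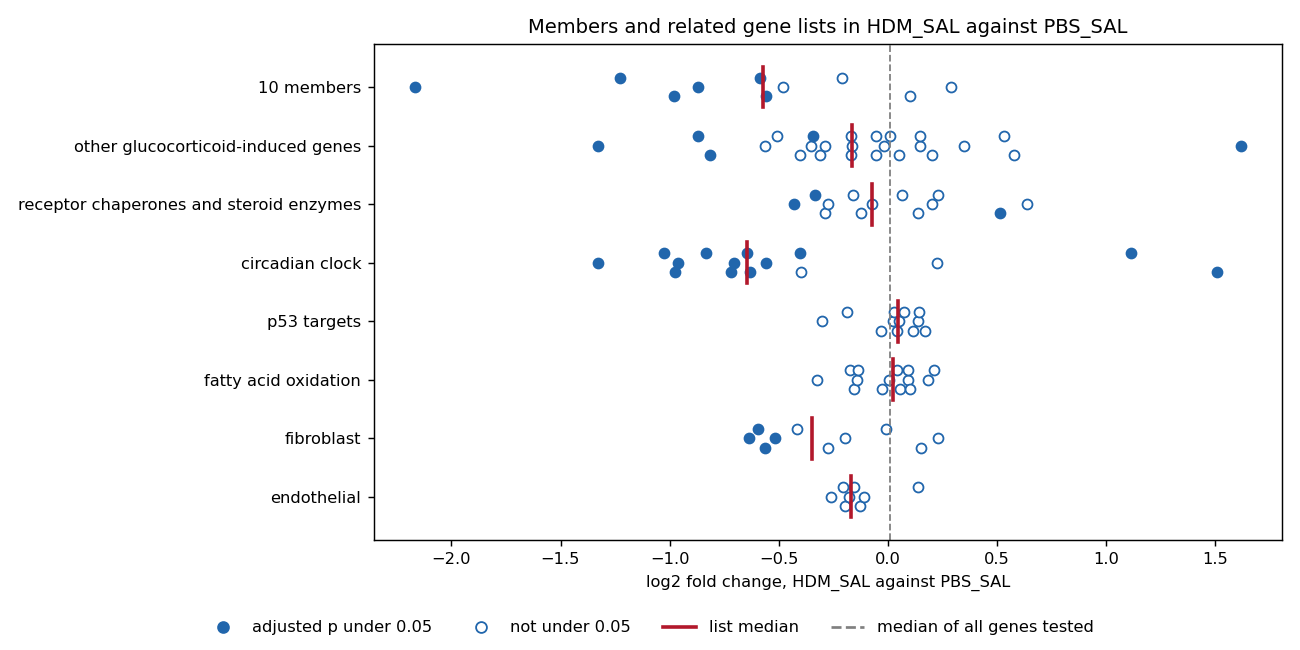
Log2 fold change in HDM_SAL against PBS_SAL of each gene of 8 lists (filled, adjusted p under 0.05; red bars, list medians; dashed line, median of all genes tested). The 10 members (median -0.57) and the clock genes (-0.65) lie mostly to the left, the p53 targets (0.04) and fatty acid oxidation genes (0.02) around the dashed line.

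Summed over the clock list, levels were 1054 to 1536 TPM in PBS_SAL, 764 to 1148 in PBS_CP, 462 to 970 in HDM_SAL and 432 to 937 in HDM_CP. The hour at which each mouse was killed was not given, and the part of the time of day in the values of the members was not tested.

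Lists for the other inducers of Cdkn1a and Pdk4 were examined in HDM_SAL, where edgeR called 0 genes of either (1 of each had an unadjusted p under 0.05, and DESeq2 and limma voom called 0). The 12 p53 targets had log2 fold changes of -0.30 to 0.17 (median 0.04). The 14 genes of the fatty acid oxidation list had -0.32 to 0.21 (median 0.02). The ends of that range are Txnip and Plin5, which are not themselves enzymes of the pathway. In HDM_CP against PBS_SAL, where Cdkn1a rose, 2 of the 12 p53 targets were higher, with a median of 0.11. These were Gdf15 (0.70 ± 0.22) and Zmat3 (0.21 ± 0.07), with adjusted p = 0.027 and 0.034 in edgeR, named after their values were seen. Of the 14 fatty acid oxidation genes 1 was higher and 1 lower there. Among all genes 8.57% were called higher and 5.94% lower in that comparison.

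Some markers of cell types differed between the groups too. Of 10 fibroblast markers 4 fell in HDM_SAL (Tcf21 by 0.52 ± 0.12, Dcn by 0.56 ± 0.14, Itga8 by 0.59 ± 0.16 and Inmt by 0.64 ± 0.17; adjusted p = 0.0095, 0.021, 0.026 and 0.028). Their list summed to 5936 to 7167 TPM in PBS_SAL and 5036 to 6396 in PBS_CP. In HDM_SAL it summed to 4127 to 5154 and in HDM_CP to 3892 to 6049, with no marker at 0. Fold changes in HDM_SAL were positive for 2 of the 10, Mfap4 (0.23 ± 0.19) and Col1a1 (0.15 ± 0.20), which did not pass the test. In HDM_CP against PBS_SAL 3 of the 10 were called higher and 3 lower, beside 8.57% and 5.94% of all genes. Of 8 markers of natural killer T and innate lymphoid cells, cells that use Zbtb16, 1 fell (Rora, by 0.30 ± 0.07, adjusted p = 0.015), and the sums were 69.8 to 85.9 TPM in PBS_SAL and 47.3 to 87.8 in HDM_SAL. Of 8 endothelial markers edgeR called 0 in HDM_SAL (2 had an unadjusted p under 0.05, and DESeq2 and limma voom called 1 each), with a median of -0.17.

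Of 8 alveolar macrophage markers 2 rose (Chil3 by 2.20 ± 0.30 and Mrc1 by 0.59 ± 0.17, adjusted p = 0.00017 and 0.042 in edgeR). Their list summed to 623 to 1110 TPM in PBS_SAL and 1772 to 3640 in HDM_SAL. Fold changes were positive for 4 of the 8. Those of Siglecf (-0.32 ± 0.21), Pparg (-0.22 ± 0.10), Car4 (-0.11 ± 0.10) and Marco (-0.09 ± 0.56) were negative and did not pass the test. Of 6 smooth muscle markers 3 rose (Actg2 by 0.99 ± 0.20, Acta2 by 0.65 ± 0.16 and Tagln by 0.43 ± 0.12), and of 10 ciliated cell markers 3 rose (Mcidas by 2.34 ± 0.46, Deup1 by 1.36 ± 0.30 and Dnah9 by 0.64 ± 0.19). Among 8 club and 8 type 2 cell markers 1 each rose, Muc5b by 4.28 ± 0.67 and Sftpa1 by 0.56 ± 0.08. Fold changes were positive for 9 of the 10 ciliated markers, and for 5 of 8 in each of the other 2 lists. The lowest were Tppp3 (-0.21 ± 0.13), Cyp2f2 (-0.30 ± 0.20) and Sftpb (-0.18 ± 0.08), and none of these passed. Median sums were lower in HDM_SAL than in PBS_SAL for the ciliated list (643 against 732 TPM) and the club list (82738 against 86659). Alveolar type 1 markers had a median of -0.13, mast cell and basophil markers of 0.08 and heart muscle markers of 0.59. The part of these cell types in the values of the 10 genes was not tested.

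With the mean levels of the ciliated and club lists as 2 covariates, none of the 6 members that fell in HDM_SAL passed, and edgeR called 8 of all 24581 genes (0.0325%). These lists hold genes that rose in HDM_SAL (Mcidas, Deup1, Dnah9 and Muc5b). The covariates can thus carry part of the exposure itself, and this fit cannot separate it from airway cell content. Their fold changes kept their direction, with Zbtb16 at -1.42 ± 0.51 (adjusted p = 0.29), Tsc22d3 at -0.49 ± 0.23 (0.44) and Map3k6 at -0.74 ± 0.19 (0.14). Hif3a, at -1.18 ± 0.32 (0.15), Klf9, at -0.51 ± 0.16 (0.23), and Fkbp5, at -0.45 ± 0.19 (0.36), had larger errors than without the covariates.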

How the data were processed

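RNA of 27 whole mouse lungs was sequenced (polyA libraries), and the authors deposited estimated counts and TPM per gene for each library. The submitters' processing notes name GRCm39, StringTie 2 and STAR, the last without a version. The authors' estimated counts were rounded to whole numbers. They sum to 56.3 to 84.4 M per library, where 20 M read pairs were planned, for a reason not given in the sources used here. Dividing them by 4 was tried as an alternative. The 310 rows without a gene symbol (0.060% of counts) were left out.

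Genes were filtered with filterByExpr (minimum count 10), TMM-scaled and fitted in 1 model of the 4 groups by edgeR 4.0.16 (quasi-likelihood, R 4.3.3), with Benjamini-Hochberg adjustment over all 24581 genes, separately in each of 7 comparisons. DESeq2 1.42.0 and limma 3.58.1 gave alternatives, limma also on log2(TPM + 1). The edgeR test was also run on simulated data for HDM_SAL against PBS_SAL (24092 genes). It recovered 43.9%, 88.1% and 98.5% of genes changed by 0.5, 1 and 2 on the log2 scale. Changed genes were drawn only above a count limit higher than that of the filter, so these rates do not cover low-count genes. In every pair of libraries of a group, counts divided by 4 differed by more than sampling noise (chi-square per degree of freedom of at least 5.80). The text names all 10 members, of each list the genes called in HDM_SAL against PBS_SAL (the 4 with the smallest p where over 5 were called) and the 5 genes most like Zbtb16 and Fkbp5. The members and lists were chosen with earlier results of these data known.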

Additional observations from a re-analysis of the deposited data

Results flagged for a closer look

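Of 40 groups of values examined (10 genes in 4 groups), 2 held a library far from the others, both for Hif3a, and chance flags about 1 in 20. In PBS_SAL, library 61 stood at 10.1 CPM and the next at 5.31, a gap of 0.722 of the group's range and above Dixon's critical value. In HDM_SAL, library 52 stood at 1.10 CPM and the next at 2.34, a gap of 0.732 of the range and again above that value.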

How the results depend on the processing

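Of 70 gene results (10 genes in 7 comparisons) 20 were called, and none of those 20 changed direction under 41 other settings (40 for the mean of the other groups and for the interaction), 27 of which leave out 1 library. All 6 calls in HDM_SAL against PBS_SAL held in 40 of the 41, with Zbtb16 between -2.50 and -1.42. The exception was the ciliated and club covariates, under which 0 members were called there, 3 in HDM_CP against PBS_SAL, 0 in HDM_CP against PBS_CP and 2 against the mean of the other groups; the cause was not tested. In PBS_CP against PBS_SAL DESeq2 called 2 members and limma voom 1, and DESeq2 called 2 in the interaction. In HDM_CP against PBS_CP 0 members were called with only the groups compared, with no filter on low counts or with log2(TPM + 1) and no filter, and 2 with the run of library numbers as a block. Leaving out 1 library gave 6 to 7 members in HDM_SAL and 6 to 8 in HDM_CP against PBS_SAL. It gave 0 to 1 in PBS_CP against PBS_SAL and 0 to 3 in HDM_CP against PBS_CP. Against the mean of the other groups it gave 5 to 8, and in HDM_CP against HDM_SAL and in the interaction 0. For most of these settings the share of all genes called is not given here. The counts of members alone do not set them apart from other genes.

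Changes of direction were seen only for results that were not called. With the covariates these were Nr3c1 (0.000597 in HDM_SAL and 0.012 in PBS_CP against PBS_SAL, -0.10 in the interaction), Tsc22d3 (0.053 in PBS_CP), Klf9 (-0.040 in HDM_CP against HDM_SAL) and Sgk1 (-0.023 in the interaction). With the run as a block they were Klf9 (-0.00872 in HDM_CP against HDM_SAL) and Nr3c1 (-0.00479 in the interaction). Without the 3 smallest libraries they were Sgk1 (-0.047) and Cdkn1a (-0.15), both in the interaction. The Pdk4 interaction was 0.16 by limma voom, 0.073 with log2(TPM + 1), filtered or not, and 0.11 with log2(TPM + 0.1). On those TPM scales Nr3c1 was 0.035 at each in HDM_CP against HDM_SAL, and Zbtb16 was -0.00776 in HDM_CP against PBS_CP with log2(TPM + 0.1).

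Leaving out 1 library gave ranges across 0 in HDM_CP against HDM_SAL for Hif3a (-0.034 to 0.23), Klf9 (-0.066 to 0.082) and Nr3c1 (-0.083 to 0.017), in HDM_CP against PBS_CP for Zbtb16 (-0.090 to 0.33), and in the interaction for Sgk1 (-0.053 to 0.11), Cdkn1a (-0.032 to 0.14), Pdk4 (-0.11 to 0.15) and Nr3c1 (-0.025 to 0.073). The cause was not tested. No paired analysis was possible because each library number belongs to 1 mouse and no number is shared between groups. Hif3a, at 1.10 to 10.1 CPM, has the least depth.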
